A study of Mus musculus with 45 samples.

Results

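The genes described here are 51 mouse genes whose products take a cell through G2 and mitosis, from cyclin B and its kinase Cdk1 to the kinetochore, the spindle, the condensins and the contractile ring. They were picked by symbol for that known role, with earlier results of these data known. All 51 were among the 13449 genes of the deposited table, and all 51 passed the filter on low values in each of the 19 comparisons.

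The RNA came from livers of mouse embryos at E15.5, when the liver is the site of blood formation. Rpl5 and Rps19 encode proteins of the large and of the small ribosomal subunit. Control embryos carried 1 floxed allele of either gene and no Cre (Rpl5flox/+ and Rps19flox/+), and the embryos compared with them carried the same allele with VavCre, a Cre recombinase under the Vav promoter, which is active in blood-forming cells (VavCre Rpl5flox/+ and VavCre Rps19flox/+). Thus every group carried a floxed allele, and VavCre without one was not analysed here. Liver homogenates were held in 25 μg/mL emetine, which stalls ribosomes on their mRNA, for 15 min. Kit+ cells, the progenitors that carry the receptor Kit, were then taken with magnetic beads, and Ter119+ cells, the erythroid cells, were taken from what the Kit step left behind. Cells of several livers were pooled by genotype, so a library is 1 pool and not 1 embryo. A sucrose gradient split each of the 24 pools into a cytoplasm and a polysome fraction, of which 24 cytoplasm and 21 polysome libraries of poly(A) RNA were analysed. A group held 3 libraries, except 2 for Rpl5flox/+ Ter119+ polysome and 1 for VavCre Rpl5flox/+ Kit+ polysome.

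Entry into mitosis is driven by Cdk1 bound to cyclin B, which the Cdc25 phosphatases switch on and which the anaphase-promoting complex (APC/C) ends by marking cyclin B and securin for destruction. The mRNAs of these genes are made in waves, low in G1 and high in G2 and M, so their level in a tissue follows the share of its cells in those phases as well as their output per cell. In G1 and in cells stopped by p53 and p21 (the product of Cdkn1a), the DREAM complex keeps these genes silent, and in G2 B-Myb and FoxM1 on the same MuvB core turn them on. Early erythroid precursors in the fetal liver divide rapidly before they leave the cycle and lose their nucleus.

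The element through which DREAM and the MuvB complexes reach these promoters is the cell cycle homology region, TTTGAA or less often TTTAAA, and many of them also hold CCAAT boxes, the letters bound by NF-Y. The 200 bases before the RefSeq start (assembly GRCm38.p6, each 5′ to 3′ on the strand of its gene) are printed for 6 members on which the results below turn: both B cyclins, their kinase, Plk1 and Ube2c, which are followed through every comparison, and Kif11, which was lower with VavCre in all 4 cytoplasm comparisons on the deposited scale. Capitals mark these 3 elements on either strand.
Ccnb1, chr13:100786487-100786686, minus strand: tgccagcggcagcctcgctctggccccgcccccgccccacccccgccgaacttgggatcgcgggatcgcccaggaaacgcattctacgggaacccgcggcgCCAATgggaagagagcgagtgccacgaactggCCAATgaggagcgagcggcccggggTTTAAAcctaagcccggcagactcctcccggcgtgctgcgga
Ccnb2, chr9:70421555-70421754, minus strand: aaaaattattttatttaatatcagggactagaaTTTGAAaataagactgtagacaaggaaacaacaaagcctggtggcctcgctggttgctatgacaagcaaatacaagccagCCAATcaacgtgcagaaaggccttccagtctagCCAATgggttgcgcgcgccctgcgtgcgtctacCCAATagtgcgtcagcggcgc
Cdk1, chr10:69352913-69353112, minus strand: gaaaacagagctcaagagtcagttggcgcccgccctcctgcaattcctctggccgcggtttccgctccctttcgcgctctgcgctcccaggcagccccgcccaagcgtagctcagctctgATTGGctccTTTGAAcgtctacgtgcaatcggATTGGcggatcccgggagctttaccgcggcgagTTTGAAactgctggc
Plk1, chr7:122159235-122159434, plus strand: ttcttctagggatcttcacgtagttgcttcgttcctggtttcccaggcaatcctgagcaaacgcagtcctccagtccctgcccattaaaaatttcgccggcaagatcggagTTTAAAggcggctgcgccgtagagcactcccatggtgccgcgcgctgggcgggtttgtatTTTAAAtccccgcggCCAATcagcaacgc
Ube2c, chr2:164769729-164769928, plus strand: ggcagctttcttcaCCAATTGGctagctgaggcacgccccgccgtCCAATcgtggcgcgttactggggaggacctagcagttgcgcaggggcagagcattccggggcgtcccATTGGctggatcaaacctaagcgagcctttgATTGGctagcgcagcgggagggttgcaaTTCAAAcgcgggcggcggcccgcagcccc
Kif11, chr19:37376182-37376381, plus strand: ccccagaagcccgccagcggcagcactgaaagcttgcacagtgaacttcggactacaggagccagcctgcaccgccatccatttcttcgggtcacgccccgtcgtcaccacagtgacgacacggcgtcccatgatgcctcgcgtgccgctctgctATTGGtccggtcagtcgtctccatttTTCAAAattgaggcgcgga
All of these windows end at the base before the first base of the annotated gene. In Ccnb1 a TTTAAA begins 42 bases before the start and CCAAT boxes 67 and 99 bases before it. In Cdk1 TTTGAA begins 15 and 71 bases before the start, and in Kif11 and Ube2c it lies on the other strand, 19 and 29 bases before it. In Plk1 the 2 marked elements of this kind are TTTAAA, 29 and 89 bases before the start. Ube2c holds 2 overlapping CCAAT boxes at 183 and 186 bases before the start, which share letters.

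Over the 43 members with a promoter window in RefSeq (250 bases before to 50 bases after a start, 41 members with 1 window and 2 with 2), TTTGAA on either strand occurred in 33, or 76.7%, against 17.9% of all 32851 windows. TTTAAA occurred in 9 members (20.9%, against 13.2% of all windows), and 1 or the other in 36 (83.7%, against 27.6%). CCAAT occurred in 32 members (74.4%, against 37.4%), at least 2 CCAAT in 20 (46.5%, against 11.7%), and an element of each kind in 30 (69.8%, against 10.7%). Among the 10587 genes of the deposited table with a window, 9.64% held an element of each kind. A match of this length is a description of the letters and not a site. For the 36 members with an element of the first kind and the 7 without, the median log2 changes with VavCre were -0.37 and -0.35 in Kit+ cytoplasm of the Rpl5 line, -0.60 and -0.60 in the Rps19 line, -1.90 and -1.74 in Ter119+ cytoplasm of the Rpl5 line, and -0.87 and -0.54 in the Rps19 line. Cdc25b, the member that fell furthest in Kit+ cells of the Rpl5 line, had neither element in its window and 1 CCAAT, 28 bases before the start.

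Levels are given as normalized counts, that is, reads divided by the size factor of the library, and changes as differences of the deposited log2 values with the standard error (SE) of the fit and the limma p adjusted over all genes tested. A change was called when that adjusted p was under 0.05. Cytoplasm libraries held 22.9 to 70.1 M reads (M for mega) in Kit+ and 45 to 123 M in Ter119+ cells, and polysome libraries 1.01 to 37.6 M and 1.02 to 39.8 M. The 4 shallow polysome libraries, under 2 M, were Rpl5flox/+ Kit+ replicate 3, Rps19flox/+ Kit+ replicates 1 and 3 and VavCre Rpl5flox/+ Ter119+ replicate 3. In Kit+ cytoplasm the floxed genes were lower with VavCre, Rpl5 at 531 ± 81.3 against 1046 ± 100 (SD, n = 3 each) and Rps19 at 12940 ± 1409 against 18037 ± 1985. The gene not floxed in a line moved there too. Rps19 ranged from 22609 to 25539 in VavCre Rpl5flox/+ against 16780 to 19807 in Rpl5flox/+. Rpl5 ranged from 491 to 748 in VavCre Rps19flox/+ against 866 to 1042 in Rps19flox/+. In Ter119+ cells Rpl5 went against its label. Its cytoplasm level was 500 ± 47.0 under the label VavCre Rpl5flox/+ against 368 ± 83.6 in Rpl5flox/+. Its polysome level was 410 to 6334 in 3 libraries of that label against 110 to 226 in 2 controls. Rps19, which is not floxed in this line, was higher under that label as well, as it was in Kit+ cytoplasm. It ranged from 24156 to 24496 against 10219 to 13241 in cytoplasm, and from 51068 to 62384 against 15741 to 22626 in polysomes. The cause of either rise, or of the Kit+ changes of the gene not floxed, was not tested. Rps19 was lower with VavCre Rps19flox/+ in Ter119+ cells, at 12023 ± 1513 against 13842 ± 1331 in cytoplasm, where libraries overlapped, and at 15196 ± 847 against 31336 ± 3350 in polysomes (SD, n = 3 each), where they did not. The 9 hemoglobin genes took 52 to 63.4% of the reads in control Ter119+ cytoplasm of the Rpl5 line and 28.3 to 40.0% in the libraries labelled VavCre Rpl5flox/+, 54.7 to 57.5% and 46.7 to 49.1% in the Rps19 line, and 0.64 to 3.06% in Kit+ cytoplasm. Results in Ter119+ cells depend on how libraries are scaled, so counts are given below with the deposited size factors and with total reads; values of single genes are on the deposited scale unless total reads are named.

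In Kit+ cytoplasm of the Rpl5 line most of the mitotic genes were modestly lower with VavCre, led by the 2 Cdc25 phosphatases, Espl1 and Ccnb2. Of the 51 members, 27 fell and 1 rose, where 16.4% of all 10908 genes tested fell and 20.8% rose. The members' median log2 change was -0.37 against 0.03 over all genes, and 46 of 51 members lay below the median of all genes. In 38 members the VavCre and control libraries did not overlap, as in 51% of all genes. In bulk libraries such as these, fewer cells in G2 and M and less of these mRNAs per cell cannot be told apart.

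All 6 genes of the Cdk1 switch fell. Cdc25b, a phosphatase that activates Cdk1 at the onset of mitosis, stood at 1127, 1214 and 1239 normalized counts in the 3 Rpl5flox/+ libraries and at 207, 261 and 282 in the 3 VavCre Rpl5flox/+ libraries. The groups were far apart, and the change was -2.20 (SE 0.18, adjusted p = 1.32e-06). Ccnb1, which encodes cyclin B1, went from 1792, 1845 and 1930 to 1034, 1198 and 1372, a fall by 0.63 on the log2 scale (SE 0.10, adjusted p = 0.000314). Ccnb2, its close relative, went from 1758, 1892 and 1981 to 1024, 1109 and 1196, a fall by 0.75 on the log2 scale (SE 0.08, adjusted p = 1.01e-05). For both cyclins every VavCre library was below every control library. Cdk1 itself moved less, from 2372, 2485 and 2501 to 1924, 1960 and 2021, with a change of -0.31 (SE 0.07, adjusted p = 0.00495), again without overlap. Cdc25c, a second phosphatase of Cdk1, changed by -1.001 (SE 0.18, adjusted p = 0.000772), and Ccna2, the cyclin of S phase and G2, was at 4617, 5038 and 5489 in controls and 3079, 3146 and 3427 with VavCre.

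The chromosomal passenger complex, which corrects wrong attachments of chromosomes, fell in all 3 of its genes that are among the 51 (Aurkb, Birc5 and Cdca8). Its subunit gene Incenp was counted with the further mitotic genes below. Of the cytokinesis genes 4 of 7 fell, with Racgap1, which organizes the contractile ring with Ect2, at -0.74 (SE 0.09, adjusted p = 4.21e-05). Espl1, which encodes separase, the protease that opens cohesin at anaphase, was at 507, 526 and 674 in controls and 274, 333 and 389 with VavCre, a change of -0.75 (SE 0.14, adjusted p = 0.00103). Plk1, the polo-like kinase, fell by 0.33 on the log2 scale (SE 0.10, adjusted p = 0.0197), a call that was lost when Rpl5flox/+ replicate 1 or 3 or VavCre Rpl5flox/+ replicate 2 was left out (adjusted p = 0.0729, 0.0694 and 0.1).

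Other members did not move with these. Ube2c, the ubiquitin-conjugating enzyme of the APC/C, was the 1 member that rose, from 3201, 3427 and 3494 to 3955, 4246 and 4606, a change of 0.34 (SE 0.11, adjusted p = 0.0233); the call was kept without replicate 2 of either group and lost without any other library (adjusted p = 0.0524 to 0.0824) and with total reads as the scale (0.27, adjusted p = 0.0749). Cdc20, the activator of the APC/C that Ube2c works with, was at -0.18 (SE 0.11, adjusted p = 0.194) and was not called. None of the 3 genes of chromatin and the chromosome periphery was called: Top2a, the topoisomerase that untangles sister chromatids, was at -0.27 (SE 0.17, adjusted p = 0.23), Mki67, the gene of the Ki-67 antigen, at -0.11 (SE 0.46, adjusted p = 0.876), and Cdca2 at -0.05. Ndc80 of the kinetochore was closest to 0, at 0.03.

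In Kit+ cytoplasm of the Rps19 line the mitotic genes split: 3 of the 4 genes of the APC/C group rose (Cdc20, Ube2c and Espl1), while 6 of 7 kinetochore genes and all 4 spindle proteins fell. Of 51 members 30 fell and 8 rose, where 26.1% of all 10908 genes fell and 27.6% rose, so that members rose in a smaller share than all genes did. The median was -0.46 over the members and 0.01 over all genes, 36 members lay below the median of all genes, and 39 members had libraries that did not overlap, against 60.9% of all genes. The changes ranged from -2.05 to 0.98.

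The members that rose were Ccnb1, Plk1, Cdc20, Ube2c, Espl1, Bub1b, Kif20a and Ncapd2. Espl1 was at 578, 604 and 677 in the Rps19flox/+ libraries and at 1083, 1237 and 1392 in the VavCre Rps19flox/+ libraries, a rise of 0.98 (SE 0.14, adjusted p = 7.99e-05). Ncapd2, a subunit of condensin I, went from 1993, 2042 and 2266 to 3352, 3694 and 3856, a rise of 0.79 (SE 0.11, adjusted p = 8.05e-05). Cdc20 went from 1903, 2048 and 2221 to 2853, 2948 and 3507, a rise of 0.59 (SE 0.11, adjusted p = 0.00045). In each of these the lowest VavCre library was above the highest control library. Ccnb1 rose from 1857, 1904 and 2138 to 2436, 2577 and 2787, by 0.40 on the log2 scale (SE 0.10, adjusted p = 0.00406), and Plk1 from 1826, 1879 and 1969 to 2279, 2310 and 2788, by 0.37 on the log2 scale (SE 0.10, adjusted p = 0.00681). Kif20a, a kinesin of cytokinesis, rose by 0.62, Bub1b, which encodes the checkpoint kinase BubR1, by 0.61 and Ube2c by 0.38.

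The members that fell furthest in this line encode proteins of the kinetochore, the spindle and the chromosome. Cenpf, a kinetochore protein that peaks in G2, went from 397, 402 and 485 to 57.9, 80 and 161, a change of -2.05 (SE 0.25, adjusted p = 2.07e-05). Top2a went from 3014, 3067 and 3436 to 851, 1036 and 1654, a change of -1.47 (SE 0.17, adjusted p = 1.44e-05). Mki67 was at 710, 777 and 1075 in controls and 111, 191 and 697 with VavCre, a change of -1.70 (SE 0.46, adjusted p = 0.00726). The highest VavCre library (replicate 2) nearly reached the lowest control for Mki67, while Cenpf and Top2a were well separated. Kif15, a spindle kinesin, changed by -1.67 (SE 0.25, adjusted p = 0.000108) and Cenpe, the kinesin that moves chromosomes to the spindle equator, by -1.56 (SE 0.29, adjusted p = 0.000624). By role, 4 of 7 cytokinesis genes and 3 of 5 condensin genes fell, while the condensin gene Ncapd2 rose and Ncaph, at 0.19, was not called. In the APC/C group Pttg1, at -0.22, was not called.

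The Cdk1 switch was divided within itself. Cdk1 fell from 2301, 2325 and 2410 to 1604, 1631 and 1885, a change of -0.46 (SE 0.07, adjusted p = 0.000208), and Ccnb2 from 1888, 1936 and 1990 to 1473, 1569 and 1582, a change of -0.33 (SE 0.08, adjusted p = 0.00316), while Ccnb1 rose as given above. Cdc25b, so strongly reduced in the Rpl5 line, was at 1059, 1088 and 1525 in controls and 676, 677 and 1070 with VavCre, a change of -0.60 (SE 0.18, adjusted p = 0.0107). Its libraries overlapped, and the call was lost without Rps19flox/+ replicate 1 (-0.44, adjusted p = 0.0636). Cdca8 at -0.01 and Cdca2 at 0.11 were closest to 0.

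**Figure D1:**
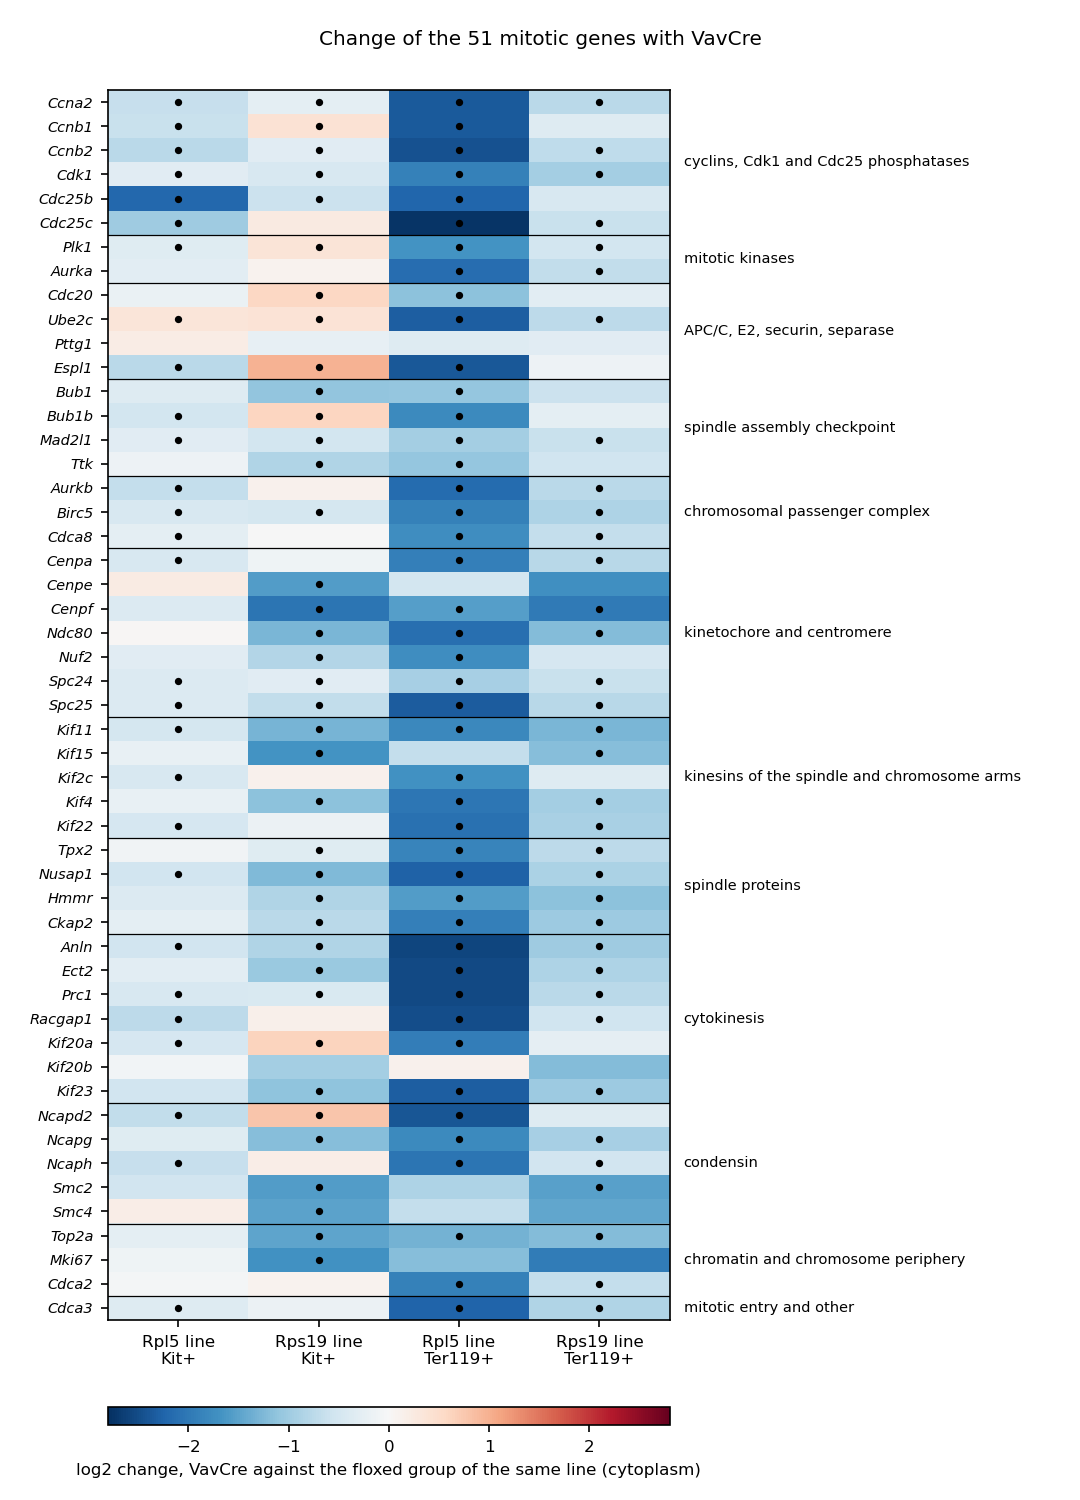
Log2 change with VavCre of each of the 51 genes (vertical, grouped by role) in the 4 cytoplasm comparisons (horizontal), blue for lower and red for higher, with a black dot where the limma adjusted p was under 0.05. The Rps19 Kit+ column holds 8 higher and 30 lower calls, whereas both Ter119+ columns hold lower calls alone, 44 and 35.

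The length of the gene went with these changes in the Rps19 line. Across the 51 members, the genomic span and the log2 change in Kit+ cytoplasm had a Spearman correlation of -0.57 in the Rps19 line and 0.16 in the Rpl5 line. In the Rps19 line the 17 members with the shortest span (up to 14.7 kb) had a median change of -0.17 and the 17 with the longest (from 31.7 kb) one of -1.03. Genes of the whole table with those spans had medians of 0.02 and -0.06, and over all 10787 genes with a span the correlation was -0.05. In Ter119+ cytoplasm the members' correlation was -0.43 in the Rps19 line and 0.19 in the Rpl5 line. These are descriptions across genes that share the same libraries, and the span stands here for a transcript length that was not used. The part of length in the result was not tested.

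The difference between the lines in Kit+ cells was tested itself, with a positive value where the VavCre change was higher in the Rpl5 line. Of 51 members 12 were higher and 16 lower, where 23.2% of all genes were higher and 25% lower, so the number of members called was near that given by the shares of all genes. The called members below 0 were led by Espl1 at -1.73, Cdc25b at -1.59, Ncapd2 at -1.48 and Cdc25c at -1.25. The called members above 0 were led by Cenpe at 1.78, Smc4 at 1.68, Cenpf at 1.68 and Kif15 at 1.47. Smc4, a condensin subunit, kept its call without Rpl5flox/+ replicate 1, VavCre Rpl5flox/+ replicate 3 or replicate 2 of either Rps19 group, and lost it without any of the other 8 libraries (adjusted p up to 0.0946). Ccnb1 differed by -1.03 (SE 0.14, adjusted p = 8.02e-05), Ccnb2 by -0.42, Plk1 by -0.70, Cdc20 by -0.77 and Top2a by 1.198, all called. Cdk1 (0.14), Mki67 (1.59), Ube2c (-0.04) and Prc1 (-0.02) were not called different. Mki67 was called without VavCre Rpl5flox/+ replicate 3 (1.87, adjusted p = 0.0382) or VavCre Rps19flox/+ replicate 2 (2.30, adjusted p = 0.000228), and Cdk1 without VavCre Rps19flox/+ replicate 1 (0.22, adjusted p = 0.049). Of the members that fell in Kit+ cells, 12 fell in both lines, which is 44.4% of the 27 of the Rpl5 line and 40% of the 30 of the Rps19 line, where of all genes 25.1% and 15.7% were shared in this way. Another 6 fell in the Rpl5 line and rose in the Rps19 line, namely Ccnb1, Plk1, Espl1, Bub1b, Kif20a and Ncapd2.

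**Figure D2:**
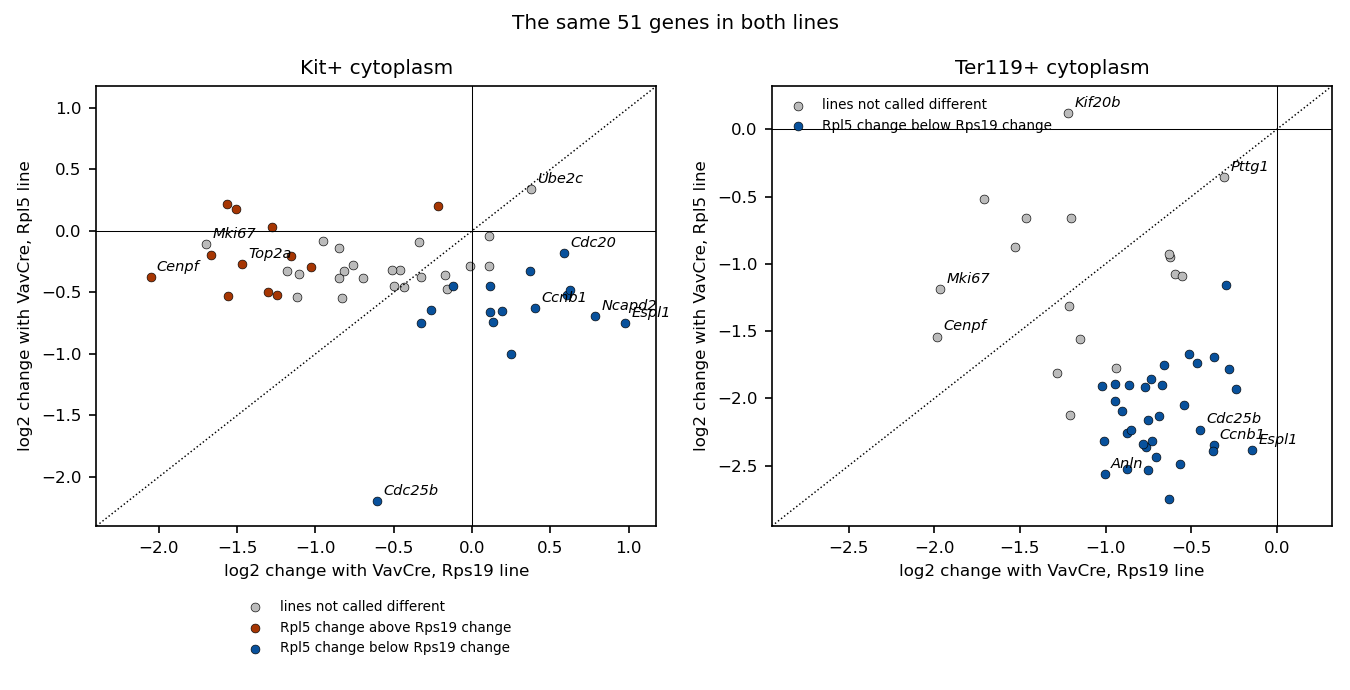
Log2 change with VavCre in the Rpl5 line (vertical) against that in the Rps19 line (horizontal), 1 point per gene, in Kit+ (left) and Ter119+ cytoplasm (right), coloured where the change differed between the lines at an adjusted p under 0.05, with the dotted line where the changes are equal. In Kit+ cells 16 points are called below and 12 above equality, and in Ter119+ cells 34 below and 0 above.

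Markers of other cells also moved in the Kit+ libraries. Of all genes 16.4% fell and 20.8% rose in the Rpl5 line, and 26.1% fell and 27.6% rose in the Rps19 line. The summed level of 8 erythroid markers was 105017 to 136433 normalized counts in Rpl5flox/+ and 41077 to 50415 in VavCre Rpl5flox/+ libraries, and 8 of 8 fell. Hepatocyte markers rose in 10 of 10 in the same comparison (sums 5689 to 18165 against 22003 to 40443), B-lymphoid markers fell in 5 of 5 tested, granulocyte and monocyte markers rose in 5 of 8 and Kit+ progenitor markers in 4 of 7. In the Rps19 line granulocyte and monocyte markers fell in 8 of 8 (14786 to 18898 against 3346 to 7079), B-lymphoid markers in 5 of 5, megakaryocyte markers in 4 of 4 (560 to 619 against 225 to 291), Kit+ progenitor markers in 4 of 7 and erythroid markers in 3 of 8. Their part in the changes of the mitotic genes was not tested.

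In Ter119+ cytoplasm of the Rpl5 line nearly the whole module was lower, most members by more than 1.5 on the log2 scale. With the deposited size factors 44 of 51 members fell and 0 rose, where 30.1% of all 10939 genes fell and 35.3% rose. The median was -1.90 over the members and 0.16 over all genes, all 51 members lay below the median of all genes, and 46 had libraries that did not overlap, against 71.7% of all genes. The summed level of the 51 genes was 308431 ± 52989 in Rpl5flox/+ and 73237 ± 3822 in the libraries labelled VavCre Rpl5flox/+ (SD, n = 3 each).

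With total reads as the scale, under which the share of all other genes is larger where that of hemoglobin is smaller, 26 members fell and 1 rose, where 5.93% of all genes fell and 74% rose, and the median was -0.56 over the members and 1.36 over all genes. All 51 members again lay below the median of all genes. In RPM (reads per mega-read of the library) the members summed to 6249 ± 1149 in controls and 3849 ± 652 with VavCre. The size of the fall thus depended on the scale. Cdc20, Top2a and Pttg1 changed sign with total reads, to 0.20, 0.046 and 0.98, of which Pttg1 was called (adjusted p = 0.000243), and Plk1 was no longer called (-0.31, adjusted p = 0.235).

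All 6 genes of the Cdk1 switch fell. Ccnb1 was at 7882, 9534 and 10784 in controls and 1777, 1839 and 1856 in the libraries labelled VavCre, a change of -2.34 (SE 0.15, adjusted p = 4.72e-08). Ccnb2 went from 7728, 9130 and 9155 to 1571, 1586 and 1598, a change of -2.44 (SE 0.12, adjusted p = 9.51e-09), and Cdk1 from 5995, 6748 and 7072 to 1641, 1657 and 2010, a change of -1.89 (SE 0.12, adjusted p = 3.35e-08). Cdc25b went from 42064, 67333 and 95844 to 10941, 14577 and 16409, a change of -2.23 (SE 0.25, adjusted p = 4.45e-06). The VavCre libraries of these 4 genes lay close together and well below the controls. Cdc25c, at -2.75 (SE 0.21, adjusted p = 1.71e-07), had the furthest fall of all members.

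The rest of the machinery fell with it. Plk1 changed by -1.67 (SE 0.17, adjusted p = 1.84e-06), Ube2c, here lower and not higher, went from 34699, 46462 and 57223 to 8387, 9404 and 9433 with a change of -2.32 (SE 0.17, adjusted p = 1.09e-07), and Cdc20 changed by -1.16 (SE 0.12, adjusted p = 2.76e-06). Top2a went from 6095, 6169 and 6789 to 2108, 2381 and 3277, a change of -1.31 (SE 0.28, adjusted p = 0.000935). These groups fell in every member: the chromosomal passenger complex (3 of 3), the spindle assembly checkpoint (4 of 4), the spindle proteins (4 of 4) and the kinases Plk1 and Aurka. In cytokinesis 6 of 7 fell, led by Anln, the anillin scaffold of the contractile ring, at -2.56 (SE 0.28, adjusted p = 3.16e-06), Prc1, which bundles the midzone microtubules, at -2.53 (SE 0.17, adjusted p = 6.29e-08), and Ect2, the activator of RhoA, at -2.53 (SE 0.28, adjusted p = 3.88e-06). The 7 members not called were Pttg1, Cenpe, Kif15, Kif20b, Smc2, Smc4 and Mki67. Pttg1, which encodes securin, was at -0.36 (SE 0.19, adjusted p = 0.109), and without Rpl5flox/+ replicate 3 it was called (-0.61, adjusted p = 0.00218). Kif20b, at 0.12, was closest to 0. Mki67 was at 3697, 3951 and 6078 in controls and 1498, 1837 and 2701 with VavCre, with a change of -1.19 (SE 0.69, adjusted p = 0.147). With the replicate number as a block, which pairs the pools of this line, Mki67 and Pttg1 were called lower (adjusted p = 0.0163 and 0.0341).

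In Ter119+ cytoplasm of the Rps19 line the module was lower again on the deposited scale. With the deposited size factors 35 of 51 members fell and 0 rose, where 13.3% of all 10939 genes fell and 12.5% rose. The median was -0.75 over the members and -0.03 over all genes, all 51 members lay below the median of all genes, and 34 had libraries that did not overlap, against 43.1% of all genes. With total reads 1 member, Cenpf, was called, lower, where 2.89% of all genes fell and 22.3% rose, with medians of -0.27 over the members and 0.40 over all genes, and all 51 members stayed below the median of all genes. Members summed to 6584 ± 894 RPM in Rps19flox/+ and 5587 ± 367 in VavCre Rps19flox/+ libraries (SD, n = 3 each).

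Cdk1 was the clearest of the named members, at 6053, 6141 and 6217 in controls and 3070, 3210 and 3274 with VavCre, a change of -0.94 (SE 0.12, adjusted p = 0.000128). Ccnb2 went from 7011, 7160 and 7933 to 4072, 4686 and 4782, a change of -0.71 (SE 0.12, adjusted p = 0.000904), and Ube2c from 34964, 37248 and 37427 to 21678, 22219 and 22329, a change of -0.73 (SE 0.17, adjusted p = 0.00674). For these 3 genes the groups did not overlap. Ccnb1 was at 5953, 7028 and 8576 in controls and 5129, 5349 and 6045 with VavCre, with overlap, and at -0.37 (SE 0.15, adjusted p = 0.0845) was not called, though it was without Rps19flox/+ replicate 3 (-0.50, adjusted p = 0.0316). Cdc20 (-0.30, SE 0.12, adjusted p = 0.0906) and Cdc25b (-0.45, SE 0.25, adjusted p = 0.202) were not called either. Plk1 was called at -0.51 (SE 0.17, adjusted p = 0.0388) and kept the call without VavCre Rps19flox/+ replicate 1 and lost it without any other library (adjusted p up to 0.128).

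Among the members called, the largest falls were those of Cenpf (-1.98, SE 0.51, adjusted p = 0.0116), Smc2, a condensin subunit (-1.53, SE 0.39, adjusted p = 0.0108), Kif11, the kinesin that pushes the spindle poles apart (-1.28, SE 0.30, adjusted p = 0.00777), and Top2a (-1.21, SE 0.28, adjusted p = 0.00681). Top2a was at 4393, 5615 and 9470 in controls and 1773, 2910 and 3603 with VavCre. Mki67 was at 4289, 4924 and 25759 in controls and 589, 3635 and 4164 with VavCre, with a change of -1.96 (SE 0.69, adjusted p = 0.0519). Its highest control, Rps19flox/+ replicate 1, stood far above the other libraries, as it did for Cenpf (882, 906 and 2988 in controls). Mki67 was called without any 1 of the other libraries but VavCre replicate 2 (adjusted p = 0.0371 to 0.0445). Without Rps19flox/+ replicate 1, 25 of the 51 members were called. Espl1 (-0.14) and Kif20a (-0.24), both higher in Kit+ cells of the line, were closest to 0 here.

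**Figure D3:**
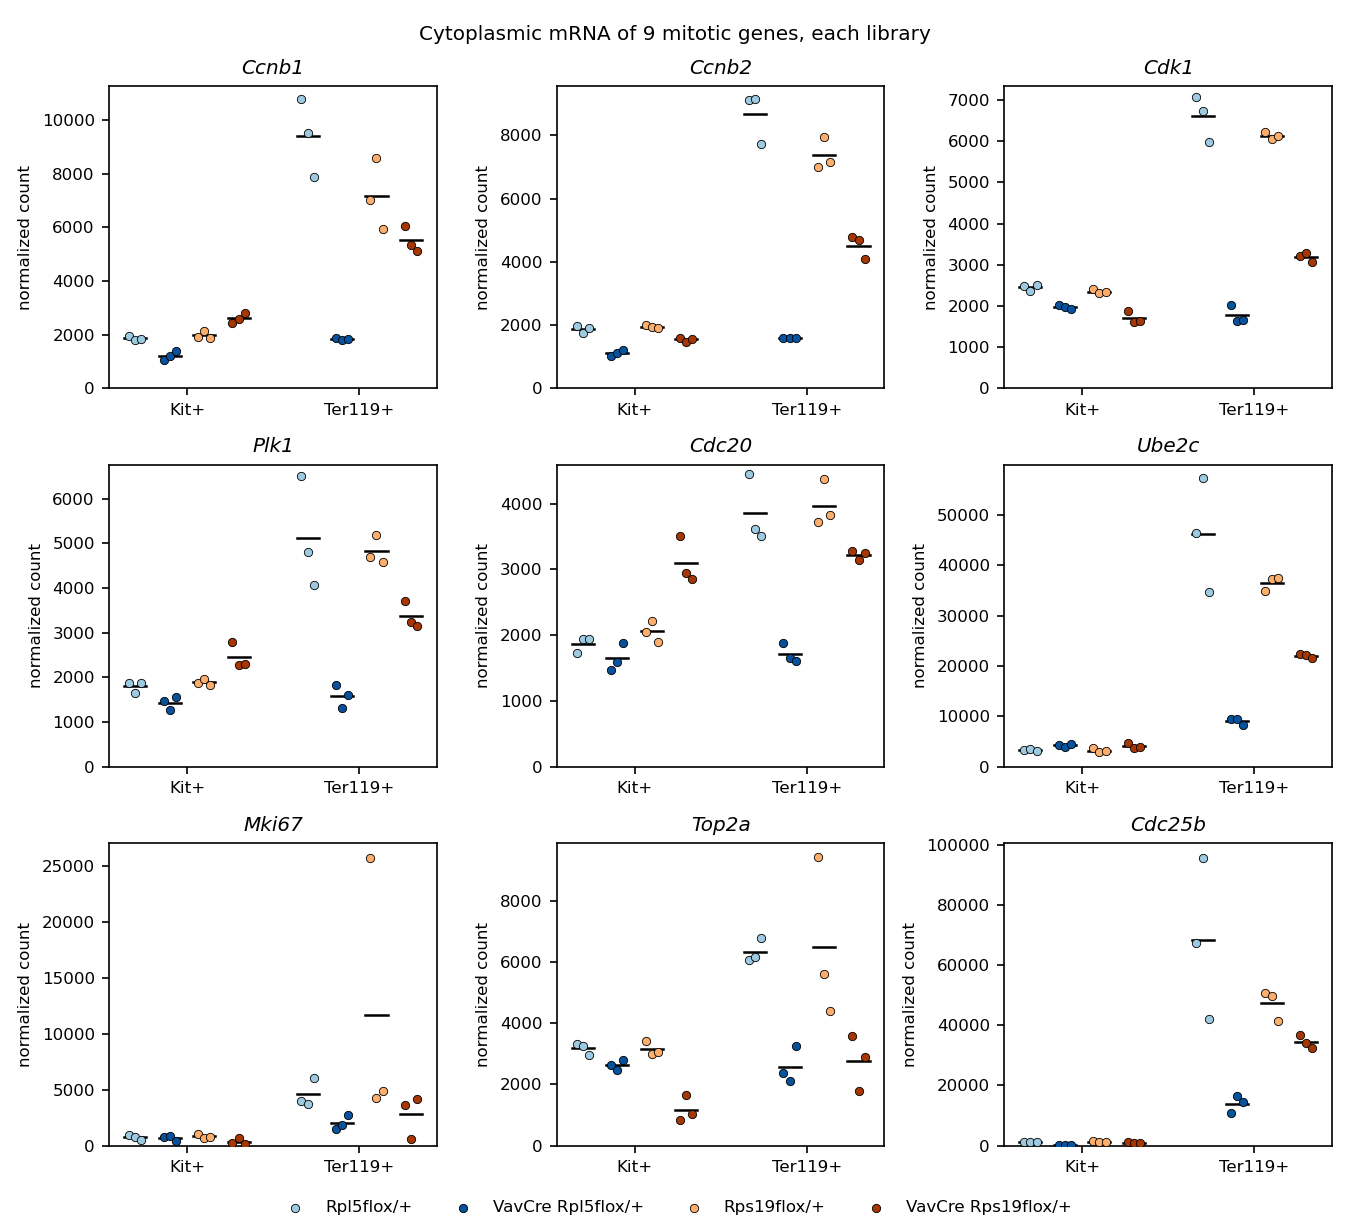
Normalized counts (vertical, each panel from 0) of 9 of the mitotic genes in every cytoplasm library, Kit+ on the left and Ter119+ on the right of each panel, with 1 point per library and a bar at the mean of the 3 libraries of a group. For Ccnb1 the 3 Ter119+ libraries labelled VavCre Rpl5flox/+ lie at 1777 to 1856, below the 5953 to 10784 of all 6 Ter119+ controls.

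The difference between the lines was called lower, that is, further down in the Rpl5 line, in 34 members and higher in 0, where 20.9% of all genes were lower and 20.5% higher. It was led by Espl1 at -2.24, Cdc25c at -2.12, Ncapd2 at -2.02 and Ccnb1 at -1.97. Ccnb2 was at -1.73, Cdk1 at -0.95, Plk1 at -1.15, Cdc20 at -0.86, Ube2c at -1.59 and Cdc25b at -1.78, all called, while Mki67 (0.78), Top2a (-0.10) and Pttg1 (-0.05) were not. With total reads 10 members were lower and 2 higher, where 4.36% of all genes were lower and 41.7% higher, Cdk1 and Plk1 were no longer called, and Cdc20 and Pttg1 turned to 0.012 and 0.81. Of the members that fell in Ter119+ cells 33 fell in both lines, 75% of the 44 of the Rpl5 line and 94.3% of the 35 of the Rps19 line on the deposited scale, where of all genes 25.7% and 58.3% were shared in this way. With total reads no member was called lower in both, where 0.314% of all genes were.

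Markers of other stages moved in the same Ter119+ libraries. On the deposited scale 30.1% of all genes fell and 35.3% rose in the Rpl5 line, and 13.3% fell and 12.5% rose in the Rps19 line. Erythroid markers fell in 8 of 8 in the Rpl5 line and in 2 of 8 in the Rps19 line. Kit+ progenitor markers rose in 7 of 7 in the Rpl5 line, where their sum was 312 to 688 in controls and 2940 to 2990 in the libraries labelled VavCre, and 2 of 7 rose and 2 fell in the Rps19 line. Granulocyte and monocyte markers rose in 6 of 8 in the Rpl5 line (5369 to 8994 against 30665 to 62648) and fell in 6 of 8 in the Rps19 line. In the Rps19 line macrophage markers fell in 6 of 6 (sums 1176 to 3669 against 487 to 827), B-lymphoid markers in 3 of 5 and megakaryocyte markers in 2 of 4. With total reads the counts that rose in the Rpl5 line were 7 of 7 progenitor, 8 of 8 granulocyte and monocyte, 5 of 6 macrophage and 10 of 10 hepatocyte markers, and 8 of 8 erythroid markers fell. On the deposited scale 2 of 10 hepatocyte markers rose there, and of 6 macrophage markers 0 rose and 1 fell. With total reads 74% of all genes rose and 5.93% fell, so the macrophage count was near the share of all genes. For the Rps19 line on that scale 4 of 8 granulocyte and monocyte, 4 of 6 macrophage, 2 of 5 B-lymphoid, 2 of 7 progenitor and 1 of 8 erythroid markers fell, where 2.89% of all genes did. Hepatocyte markers were present in all these libraries, with sums of 25099 to 39610 against 31161 to 47458 in the Rpl5 line. Their part in the changes of the mitotic genes was not tested.

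**Figure D4:**
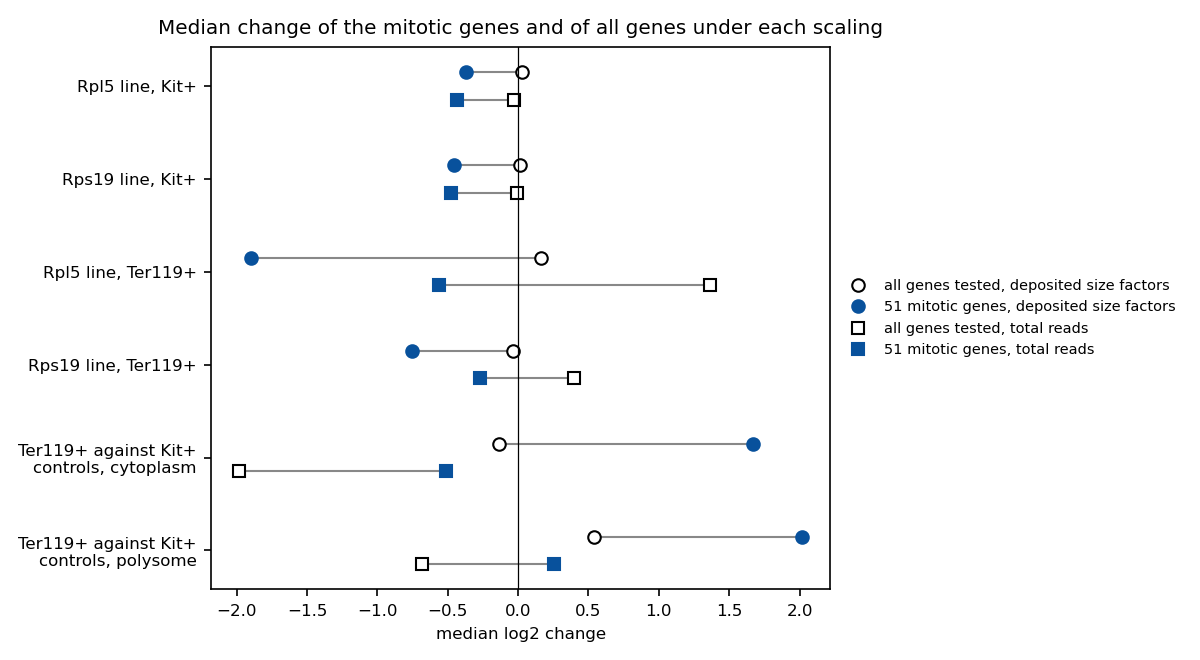
Median log2 change of the 51 mitotic genes (filled) and of all genes tested (open) in 6 comparisons (vertical), with libraries scaled by the deposited size factors (circles) and by total reads (squares). In Ter119+ cells of the Rpl5 line both medians move, from -1.90 and 0.16 to -0.56 and 1.36, and the filled points stay to the left of the open ones.

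Over the 4 cytoplasm comparisons, with the deposited size factors, 11 members fell in all 4: Ccna2, Ccnb2, Cdk1, Mad2l1, Birc5, Spc24, Spc25, Kif11, Nusap1, Anln and Prc1. Of all genes 1.9% fell in all 4 on that scale. With total reads no member was called lower in all 4, where 0.159% of all genes were. Kif11 shows the pattern, at 907, 983 and 996 against 619, 648 and 768 and 870, 924 and 974 against 287, 312 and 541 in the Kit+ cells of the Rpl5 and Rps19 lines. Its Ter119+ values were 2754, 2932 and 3173 against 713, 796 and 1011 and 1881, 2372 and 4548 against 702, 1259 and 1552, and in no pair did the libraries overlap. Pttg1 and Kif20b were called in none of the 4. All 27 members that fell in Kit+ cells of the Rpl5 line also fell in its Ter119+ cells, where 44 fell. So did 77.7% of all genes that fell in its Kit+ cells. With total reads 20 members fell in both, where 4.34% of all genes did. In the Rps19 line 23 members fell in both cell types, 76.7% of the 30 of the Kit+ and 65.7% of the 35 of the Ter119+ cells (31.7% and 62.4% for all genes). With total reads 1 did, Cenpf, where 2.32% of all genes did.

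Control Ter119+ cells had higher levels of nearly all these mRNAs than control Kit+ cells on the deposited scale, and lower levels of most of them on the scale of total reads. With the deposited size factors 49 of 51 members were higher and 0 lower, where 36.3% of all 11018 genes were higher and 44% lower, with medians of 1.67 and -0.14. With total reads 3 members were higher and 31 lower, where 5.86% of all genes were higher and 88.3% lower. The medians were then -0.51 over the members and -1.98 over all genes. All 51 members lay above the median of all genes on the deposited scale and 50 did with total reads. The leading members were Cdc25b at 5.51 (SE 0.16, adjusted p = 1.83e-18), Ube2c at 3.63 (SE 0.09, adjusted p = 5.84e-19), Nusap1, which bundles spindle microtubules, at 3.36 (SE 0.14, adjusted p = 1.24e-15), and Mki67 at 2.94 (SE 0.46, adjusted p = 4.9e-06). Cdc25b was at 1127, 1214 and 1239 in Kit+ and 42064, 67333 and 95844 in Ter119+ libraries of Rpl5flox/+, so that every Ter119+ library exceeded every Kit+ library by far. Ccnb1 (2.08), Ccnb2 (2.06), Cdk1 (1.40), Plk1 (1.41), Cdc20 (0.99), Top2a (0.97) and Spc24 (0.26) were called higher on the deposited scale and turned to -0.13, -0.16, -0.81, -0.80, -1.22, -1.24 and -1.93 with total reads. Kif15 (0.14) was not called on the deposited scale.

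The members' response to VavCre itself differed between the cell types. In the Rpl5 line the change was lower in Ter119+ than in Kit+ cells in 42 members and higher in 0, where 22.6% of all genes were lower and 25.8% higher. The leading genes were Ube2c at -2.65, Ect2 at -2.23, Ndc80 at -2.15 and Prc1 at -2.07, and Ccnb1 (-1.71), Ccnb2 (-1.68), Cdk1 (-1.58), Plk1 (-1.34) and Cdc20 (-0.97) were called as well. Top2a (-1.04, SE 0.35, adjusted p = 0.0189) lost its call without VavCre Rpl5flox/+ Ter119+ replicate 2 (-0.91, adjusted p = 0.0539). Cdc25b (-0.03, SE 0.32, adjusted p = 0.942), Mki67 (-1.08) and Kif20b (0.20) were not called. With total reads 2 members were lower and 4 higher, where 1.46% of all genes were lower and 70.8% higher. The medians were then -0.04 over the members and 1.22 over all genes. Plk1, Cdc20, Top2a and Cdc25b turned to 0.085, 0.45, 0.38 and 1.42.

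In the Rps19 line 19 members were lower in Ter119+ than in Kit+ cells and 0 higher, where 8.35% of all genes were lower and 3.93% higher. They were led by Ncapd2 at -1.16, Espl1 at -1.12, Ube2c at -1.10 and Plk1 at -0.89, genes that rose in Kit+ cells of that line. Ccnb1 (-0.77), Cdc20 (-0.88) and Cdk1 (-0.49) were called, and Ccnb2 (-0.38, adjusted p = 0.0534), Mki67 (-0.27), Top2a (0.26), Cdc25b (0.15), Kif11 (0.02) and Smc2 (0.02) were not. Ccnb2 was called without Ter119+ replicate 1 of Rps19flox/+ or of VavCre Rps19flox/+ (adjusted p = 0.046 and 0.0491). With total reads 1 member was lower and 1 higher, where 0.632% of all genes were lower and 12.3% higher, and Cdk1 turned to 0.023.

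The means of the 8 cytoplasm groups were put in order for each member on the deposited scale, and the highest and the lowest group were counted. The highest group was Rpl5flox/+ Ter119+ in 41 members and Rps19flox/+ Ter119+ in the other 10. The lowest was VavCre Rps19flox/+ Kit+ in 26, VavCre Rpl5flox/+ Kit+ in 21, VavCre Rpl5flox/+ Ter119+ in 3 and Rps19flox/+ Kit+ in 1. For Ccnb1 the order from the top was both Ter119+ control groups, whose libraries overlapped, VavCre Rps19flox/+ Ter119+, which overlapped with its control, VavCre Rps19flox/+ Kit+ and then 3 groups whose libraries overlapped or nearly met (Rps19flox/+ Kit+, Rpl5flox/+ Kit+ and VavCre Rpl5flox/+ Ter119+), with VavCre Rpl5flox/+ Kit+ last.

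In the polysome fraction, the mRNA on several ribosomes, the same comparisons gave fewer calls. In Kit+ cells of the Rpl5 line, with 1 VavCre library, limma called 0 of 51 members (voom also 0), where 1.39% of all 10557 genes rose and 0.426% fell, and at an unadjusted p under 0.05 there were 0 higher and 3 lower. Cdc25b was at -2.02 (SE 0.70, adjusted p = 0.318), and its VavCre library held 118 against 280, 638 and 799 in the controls. The other members named in each comparison were Ccnb1 at 0.16, Ccnb2 at -0.18, Cdk1 at -0.03, Plk1 at 0.10, Cdc20 at -1.02, Ube2c at -0.24, Mki67 at 0.21, Top2a at -0.40 and Aurka at -0.01, none called. Cdc25c, Ttk, Ckap2 and Ect2 had no read in that VavCre library. The VavCre arm is 1 library that is assumed to vary like the libraries of the other groups, so no count of calls is read from it.

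In Kit+ polysomes of the Rps19 line 2 members rose and 6 fell, where 6.19% of all genes rose and 3.68% fell. Ube2c (1.67, SE 0.39, adjusted p = 0.0268) and Ccna2 (0.79, SE 0.21, adjusted p = 0.0436) rose. The median was 0.35 over the members and 1.11 over all genes, so Ccna2 rose by less than the median gene did. The falls were led by Espl1 (-2.33, SE 0.50, adjusted p = 0.0176), Cenpf (-1.97, SE 0.50, adjusted p = 0.0363), Kif22 (-1.82, SE 0.29, adjusted p = 0.00367) and Pttg1 (-1.61, SE 0.34, adjusted p = 0.0169), and Birc5, the survivin of the passenger complex, was at -1.28 (SE 0.17, adjusted p = 0.00151) and Cdca8 at -1.15 (SE 0.24, adjusted p = 0.015). Espl1 thus rose in the cytoplasm and fell in the polysomes of these pools, at 926, 1117 and 2347 in control polysomes and 245, 254 and 268 with VavCre. Not called were Ccnb1 at 1.16, Ccnb2 at 3.61, Cdk1 at -0.07, Plk1 at 0.03, Cdc20 at -0.78, Mki67 at -1.83, Top2a at -0.60, Cdc25b at 0.37, Kif2c at -0.01 and Spc24 at 0.02. These counts rest on few libraries: without VavCre Rps19flox/+ replicate 2 or 3 there were 2 calls each, without replicate 1 of that group 4, without Rps19flox/+ replicate 3 there were 5 and without Rps19flox/+ replicate 2 there were 18. With total reads 11 members rose and 0 fell, where 21.3% of all genes rose and 0.89% fell, and the median was 1.26 over the members and 1.82 over all genes.

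In Ter119+ polysomes of the Rpl5 line 28 members fell and 0 rose, where 10.3% of all 10614 genes fell and 2.96% rose, with medians of -2.40 and -1.004. The libraries labelled VavCre are those in which Rpl5 went against its label and Rps19 was higher as well. Erythroid markers fell in 8 of 8 in the same comparison, and granulocyte and monocyte markers rose in 4 of 8 (sums 4506 to 6320 against 36057 to 89095), and their part in the result was not tested. Ccnb2 (-5.70, SE 1.45, adjusted p = 0.0222), Ect2 (-5.70, SE 1.25, adjusted p = 0.0105), Ccna2 (-5.65, SE 1.68, adjusted p = 0.0443) and Ncaph, a condensin I subunit (-5.03, SE 1.18, adjusted p = 0.015), fell furthest, with no read in 1 of the 3 VavCre libraries for Ccnb2, Ccna2 and Ncaph and in 2 for Ect2, so their fitted sizes are not exact. Cdc25b went from 62222 and 79657 in the 2 controls to 2589, 4329 and 7887 in the libraries labelled VavCre, a change of -3.98 (SE 0.44, adjusted p = 0.000147), and Ube2c from 67802 and 83997 to 4964, 6929 and 9174, a change of -3.47 (SE 0.30, adjusted p = 6.14e-05). In both the groups stood well apart. Ccnb1 (-2.63), Cdk1 (-2.85), Plk1 (-2.12), Mki67 (-2.04) and Top2a (-1.61) fell, and Cdc20 (-1.12), Espl1 (0.05) and Spc24 (-0.43) were not called. Without Rpl5flox/+ replicate 1 there were 5 calls and without replicate 2 there were 9, each with 1 control library left. With total reads 2 members fell and 1 rose, where 1.81% of all genes fell and 9.47% rose, and Top2a turned to 0.017.

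In Ter119+ polysomes of the Rps19 line 4 members fell and 0 rose, where 0.575% of all genes fell and 0.226% rose. They were Mki67 (-2.99, SE 0.42, adjusted p = 0.0132), Cenpf (-2.40, SE 0.48, adjusted p = 0.0453), Cdca8, the borealin of the passenger complex (-1.37, SE 0.28, adjusted p = 0.0466), and Birc5 (-1.20, SE 0.23, adjusted p = 0.0406). Mki67 was at 10762, 10816 and 16952 in controls and 973, 1602 and 2468 with VavCre, without overlap. Not called were Ccnb1 at 1.43, Ccnb2 at 0.62, Cdk1 at -0.47, Plk1 at 0.06, Cdc20 at -0.47, Ube2c at -0.31, Top2a at -1.42, Cdc25b at 0.55 and Bub1 at 0.02. Without Rps19flox/+ replicate 1 or 3 or VavCre Rps19flox/+ replicate 3 no member was called, and without VavCre replicate 1 or 2 there was 1. On the deposited scale the medians were -0.39 over the members and 0.51 over all genes. With total reads 0 were called.

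Between the control cell types the polysome fraction followed the cytoplasm on the deposited scale, with 33 members higher in Ter119+ and 0 lower, where 17.6% of all 10784 genes were higher and 7.23% lower. It was led by Cdc25b (6.42, SE 0.32, adjusted p = 3.6e-12), Anln (4.67, SE 0.86, adjusted p = 0.000324), Ccnb2 (4.42, SE 1.03, adjusted p = 0.00286) and Ube2c (4.39, SE 0.25, adjusted p = 5.29e-11). Ccnb1 (2.18), Cdk1 (1.75), Plk1 (1.1997), Mki67 (2.76) and Top2a (1.08) were called, and Cdc20 (0.11) and Kif15 (-0.02) were not. With the deposited size factors the medians were 2.02 over the members and 0.54 over all genes. With total reads 5 members were higher and 9 lower, where 5.16% of all genes were higher and 21.4% lower. On that scale Cdk1, Plk1, Cdc20 and Top2a turned to -0.11, -0.66, -1.76 and -0.79.

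Set against the cytoplasm of the same pools, members differed in how far their mRNA was found in polysomes, with Pttg1 and Birc5 at the high end. In control Kit+ cells 7 members were higher in polysomes and 25 lower, where 8.74% of all 10819 genes were higher and 50.6% lower. The number of members lower was thus near that given by the share of all genes. The medians were -0.78 over the members and -1.34 over all genes. The high end was Pttg1 (2.25, SE 0.23, adjusted p = 5.52e-05), Birc5 (1.38, SE 0.10, adjusted p = 7.78e-06), Kif22, a chromosome-arm kinesin (1.24, SE 0.15, adjusted p = 0.000142), and Espl1 (1.07, SE 0.25, adjusted p = 0.00604). The low end was Anln (-4.13, SE 0.63, adjusted p = 0.000554), Ect2 (-3.87, SE 0.88, adjusted p = 0.00501), Smc2 (-3.51, SE 0.68, adjusted p = 0.0022) and Ccnb2 (-3.11, SE 0.66, adjusted p = 0.00336). Pttg1 was at 1211, 1306 and 1797 in the polysomes and 271, 272 and 275 in the cytoplasm of Rpl5flox/+ cells, and Anln at 0, 0 and 60.5 and 226, 235 and 315. Anln had no read in 4 of the 6 control polysome libraries, Ect2 in 3, and Smc2 and Ccnb2 in 1 each, so their fitted sizes are not exact. Plk1 kept its call without Rps19flox/+ polysome replicate 3 alone (adjusted p up to 0.0997 otherwise), and Ube2c was called without Rps19flox/+ polysome replicate 2 (-0.76, adjusted p = 0.00642). Ccnb1 (-1.82), Cdk1 (-0.58), Plk1 (-0.40) and Cdc25b (-1.32) were lower, Cdc20 (0.65) was higher, and Ube2c (-0.47), Mki67 (0.72), Top2a (-0.21) and Bub1b (-0.06) were not called. With total reads 2 members were higher and 40 lower, again near the shares of all genes (3.06% higher and 76.8% lower), and Cdc20 turned to -0.29.

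In control Ter119+ cells 2 members were higher in polysomes, Pttg1 (1.25, SE 0.28, adjusted p = 0.019) and Birc5 (0.88, SE 0.13, adjusted p = 0.00225), and 7 lower, where 2.87% of all 10898 genes were higher and 5.59% lower. The lower ones were led by Kif20a (-2.08, SE 0.59, adjusted p = 0.0498), Anln (-1.88, SE 0.45, adjusted p = 0.028), Ccnb1 (-1.79, SE 0.26, adjusted p = 0.00178) and Ncapd2 (-1.42, SE 0.18, adjusted p = 0.000782). Not called were Ccnb2 at -0.79, Cdk1 at -0.26, Plk1 at -0.68, Cdc20 at -0.26, Ube2c at 0.20, Mki67 at 0.65, Top2a at -0.08, Cdc25b at -0.57, Kif22 at 0.02 and Cenpa at -0.05. Without Rpl5flox/+ replicate 1 or 2 or Rps19flox/+ replicate 1 there were 3 calls each, and without Rps19flox/+ replicate 3 there were 4. Without the polysome libraries under 2 M reads there were 29 calls (4 higher and 25 lower). The share of all genes called in that fit is not given here, so the larger count is not read as a result about the members. With all libraries and the deposited size factors the medians were -0.65 over the members and -0.64 over all genes. With total reads 0 members were higher and 15 lower, where 1.28% of all genes were higher and 12.7% lower.

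**Figure D5:**
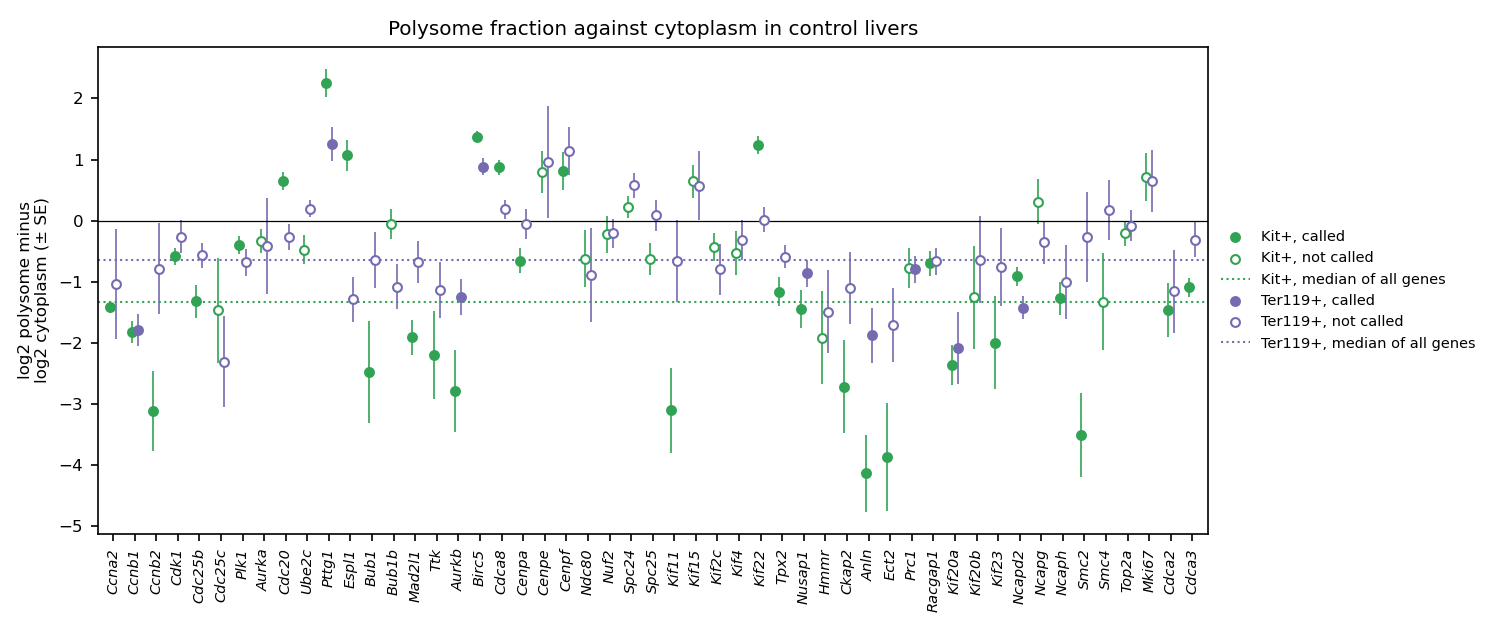
Log2 polysome minus log2 cytoplasm (vertical, points with bars of 1 SE) of each of the 51 genes (horizontal, grouped by role) in control Kit+ and Ter119+ cells, filled where called, with dotted lines at the medians of all genes. Pttg1 stands highest in both cell types, at 2.25 and 1.25, and Anln lowest in Kit+ cells at -4.13.

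This loading differed between VavCre and control Kit+ cells of the Rps19 line, by the test of polysome minus cytoplasm. It was called higher in 5 members and lower in 5, where 5.81% of all 10819 genes were higher and 2.7% lower. Higher were Kif11 (5.27, SE 1.38, adjusted p = 0.0472), Smc2 (5.19, SE 1.36, adjusted p = 0.0468), Mad2l1, the checkpoint inhibitor of Cdc20 (2.18, SE 0.57, adjusted p = 0.0464), Cdca3 (1.26, SE 0.31, adjusted p = 0.0394) and Ccna2 (1.05, SE 0.20, adjusted p = 0.0188). With the deposited size factors the median was 0.76 over the members and 1.19 over all genes. Ccna2 thus lay below the median gene and Cdca3 near it. Lower were Espl1 (-3.31, SE 0.51, adjusted p = 0.0106), Kif22 (-1.66, SE 0.30, adjusted p = 0.0169), Cdc20 (-1.36, SE 0.30, adjusted p = 0.0305), Cdca8 (-1.13, SE 0.26, adjusted p = 0.0322) and Birc5 (-0.78, SE 0.20, adjusted p = 0.0428). Not called were Ccnb1 at 0.76, Ccnb2 at 3.94, Cdk1 at 0.39, Plk1 at -0.34, Ube2c at 1.29, Mki67 at -0.13, Top2a at 0.87, Cdc25b at 0.97, Cenpe at -0.05 and Cenpf at 0.08. Kif11 was at 0, 0 and 411 in the control polysomes and 366, 415 and 564 with VavCre, and Smc2 at 0, 41.5 and 239 and 478, 629 and 632, so that their large fitted values rest on control libraries with no read. Of these 3 control libraries 2 held under 2 M reads. The control polysome libraries held 1.01, 7.17 and 1.83 M reads and the VavCre ones 10.8, 24.4 and 37.6 M. Depth thus went with genotype in the Kit+ polysomes of this line, and its part in the result was not tested. Without VavCre Rps19flox/+ replicate 1 or 3 there was no call, without its replicate 2 there was 1, without Rps19flox/+ replicate 3 there were 5 and without Rps19flox/+ replicate 2 there were 16. With total reads 18 were higher and 1 lower, where 24.8% of all genes were higher and 0.46% lower, with medians of 1.70 over the members and 1.80 over all genes, and Birc5 turned to 0.19.

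In Ter119+ cells no member's loading was called by limma in either line (voom 0 in both). The percentages of all genes below are at the adjusted threshold. At an unadjusted p under 0.05 the share of all genes was not taken, so those counts of members cannot be read as an excess. In the Rps19 line 0.00918% of all 10898 genes were higher and 0.00918% lower, with 5 members higher and 2 lower at an unadjusted p under 0.05, and the 9 genes were Ccnb1 at 1.80, Ccnb2 at 1.33, Cdk1 at 0.48, Plk1 at 0.57, Cdc20 at -0.18, Ube2c at 0.42, Mki67 at -1.02, Top2a at -0.21 and Cdc25b at 1.00, with Ncapd2 (0.06) and Bub1b (0.08) closest to 0. In the Rpl5 line 0% of all genes were higher and 0.00918% lower, with 2 and 5 members at an unadjusted p under 0.05, and the values were Ccnb1 at -0.17, Ccnb2 at -3.19, Cdk1 at -0.89, Plk1 at -0.30, Cdc20 at 0.09, Ube2c at -0.96, Mki67 at -1.07, Top2a at -0.34 and Cdc25b at -1.44, with Nuf2 (0.07) closest to 0. Without VavCre Rpl5flox/+ Ter119+ polysome replicate 2 there were 5 calls, 1 higher and 4 lower, among them Cdc25b (-1.72, adjusted p = 0.0318) and Ube2c (-1.15, adjusted p = 0.0395).

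Genes around the module moved in part with it, read here against the shares of all genes given above for the same comparisons. Of 87 further mitotic genes, not among the 51, 40 fell and 1 rose in Kit+ cytoplasm of the Rpl5 line, led by Ncapg2 at -0.94 and Fbxo5, the APC/C inhibitor Emi1, at -0.84. The Rps19 line had 39 that fell and 18 that rose, with Knl1 at -1.66 and Gtse1 at 1.58. In Ter119+ cytoplasm 73 fell and 3 rose in the Rpl5 line, led by Kif18b at -3.32, and 48 fell and 3 rose in the Rps19 line. With total reads 21 fell and 20 rose in the Rpl5 line and 3 fell and 5 rose in the Rps19 line, with list medians of -0.17 and -0.09 where all genes had 1.36 and 0.40.

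Of 23 transcription regulators of the program (Foxm1, Mybl2 for B-Myb, E2F, MuvB, pocket protein and NF-Y genes), 14 fell and 0 rose in Kit+ cytoplasm of the Rpl5 line, led by E2f2 at -1.63. For the Rps19 line 8 fell and 6 rose, where 26.1% of all genes fell and 27.6% rose, so the rises were near that share. The falls were led by Rbl1, the p107 of DREAM, at -1.14 and Lin9 of MuvB at -1.10. In Ter119+ cytoplasm 19 fell in the Rpl5 line, led by E2f8 at -2.99, and 13 in the Rps19 line, led by E2f1 at -0.90, with 0 higher in either. With total reads 10 fell and 4 rose in the Rpl5 line and 0 fell and 1 rose in the Rps19 line. Foxm1 was at -0.54 and 0.44 in Kit+ cells of the Rpl5 and Rps19 lines and at -2.59 and -0.75 in Ter119+ cells, all called. Mybl2 was at -0.65 and 0.61 in Kit+ cells and at -2.24 in Ter119+ cells of the Rpl5 line, all called, and at -0.38 in those of the Rps19 line, not called (adjusted p = 0.0798). Both thus had opposite signs in the Kit+ cells of the lines. With total reads Foxm1 and Mybl2 were at -1.25 and -0.89 in Ter119+ cells of the Rpl5 line, both called, and at -0.26 and 0.11 in the Rps19 line, not called.

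Of 28 genes of G1/S and replication, 24 fell in Kit+ cytoplasm of the Rpl5 line, led by Ccne1 at -1.09 and Cdc6 at -1.06, and 0 rose. There 8 fell and 8 rose in the Rps19 line, with Ccne2 at -1.21 and Pole at 0.91. Both counts were near the shares of all genes, of which 26.1% fell and 27.6% rose. In Ter119+ cells 27 fell in the Rpl5 line, led by Rrm2 at -2.25, and 17 in the Rps19 line, led by Ccne2 at -1.04. With total reads 2 fell and 6 rose in the Rpl5 line, with the list median turned from -1.08 to 0.27, and 0 fell and 0 rose in the Rps19 line, with the median turned from -0.46 to 0.020. Cdkn1a, the gene of p21, rose in all 4 cytoplasm comparisons, by 4.99 and 5.77 in Kit+ cells and by 5.72 and 6.39 in Ter119+ cells of the Rpl5 and Rps19 lines, on the log2 scale. Trp53 rose by 0.98 in Kit+ cells of the Rps19 line and by 1.04 and 1.00 in Ter119+ cells of the Rpl5 and Rps19 lines. Both genes were also called higher in Ter119+ cells with total reads.

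Counting could mix 7 members with a neighbour they overlap, namely Ccna2 with Exosc9, Aurka with Cstf1, Cdc20 with Elovl1, Nusap1 with Oip5, Prc1 with Rccd1, Kif20a with Brd8 and Cdc23, and Ncapg with Lcorl, since the strand rule of the counting was not given in the sources used here.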

How the data were processed

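The deposited table held log2 values for 13449 genes in 45 libraries, made by the authors from reads on the mm10 build, per the submitters' processing notes (the read aligner and the gene counter are not given in these sources). Its lowest value, 2.92263, is that of 0 reads, and the log2 values inverted to whole reads in 100% of cells (within 1e-06) with size factors taken over 2434 genes read in every library. The members, gene lists and tests were chosen with earlier results of these data known. Groups came from the sample titles. Changes were tested with limma 3.58.1 (R 4.3.3; lmFit, eBayes with trend, two-sided) on the deposited log2 values, for genes averaging 10 or more normalized counts over the libraries of a fit, with Benjamini-Hochberg adjustment over all of them and a threshold of 0.05. Fits used the libraries of 1 cell type and fraction of both lines, both cell types where these were compared, and pools as blocks between fractions. The model was tested on simulated data.

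Nothing in the labels says which embryos a pool held, so p-values measure the spread between pools. All 43 pairs of replicates differed by more than sampling noise (lowest chi-square per degree of freedom 21.77). Same-numbered VavCre and control pools of the Rpl5 line deviated together, each correlation over 0.1, in Kit+ (0.24 to 0.30) and Ter119+ cytoplasm (0.13 to 0.27). There the number was taken to pair the pools. In the Rps19 line they did not do so throughout. Same-numbered Kit+ and Ter119+ cytoplasm pools deviated together in VavCre Rpl5flox/+ (0.15 to 0.39) and Rps19flox/+ (0.14 to 0.26). They did not throughout in Rpl5flox/+ (-0.06 to 0.11) and did not in VavCre Rps19flox/+ (-0.26 to -0.05). No main fit held a block for the replicate number, neither between VavCre and control, also in the Rpl5 line, nor between the cell types.

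Named with values in a comparison were the 4 members with the largest called change in each direction, the 2 nearest to 0, all members of a direction with 5 or fewer calls, and Ccnb1, Ccnb2, Cdk1, Plk1, Cdc20, Ube2c, Mki67, Top2a and Cdc25b throughout; other members appear as examples of a role, picked with their values seen. Alternatives were other size factors, log2(normalized count + 1), no filter or a minimum of 50, voom on the recovered reads, a replicate block, no pool block, each library left out, polysome libraries under 2 M reads left out and, added after seeing the data, total reads as the scale. Promoters came from RefSeq (GRCm38.p6); 8 members had no entry.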

Additional observations from a re-analysis of the deposited data

Results flagged for a closer look

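The response of the 51 genes to VavCre differed between the lines, by a test of the difference itself, in 28 members in Kit+ cytoplasm (12 higher and 16 lower, where 23.2% and 25% of all genes were) and 34 in Ter119+ cytoplasm (all lower, where 20.9% of all genes were). The first count is near the share of all genes. The response differed between Ter119+ and Kit+ cytoplasm in 42 members in the Rpl5 line and in 19 in the Rps19 line, all lower, where 22.6% and 8.35% of all genes were. The difference of polysome and cytoplasm in Kit+ cells changed with VavCre in 10 members in the Rps19 line (5 higher and 5 lower, where 5.81% and 2.7% of all genes were). The Ter119+ parts of these results depend on the scaling of the libraries, as given below.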

How the results depend on the processing

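The log2(normalized count + 1) scale, both other filters, size factors taken within a fit and the fit without a pool block left every count of called members within 1.5 times its value. Total reads as the scale changed the most: the count fell to 27 in Ter119+ cytoplasm of the Rpl5 line and to 1 in the Rps19 line, to 3 and 0 in their polysomes, to 12 for the difference between the lines in Ter119+ cytoplasm, to 14 for Ter119+ against Kit+ polysomes, to 6 (Rpl5) and 2 (Rps19) for the difference between cell types, and rose to 15 for polysome against cytoplasm of Ter119+ controls and to 19 for polysome minus cytoplasm in Kit+ cells of the Rps19 line. It also turned 25 values of named members. These were Cdc20 0.20, Top2a 0.046 and Pttg1 0.98 in Ter119+ cytoplasm of the Rpl5 line and Top2a 0.017 in its polysomes; Cdc20 0.012 and Pttg1 0.81 for the lines in Ter119+ cells; Ccnb1 -0.13, Ccnb2 -0.16, Cdk1 -0.81, Plk1 -0.80, Cdc20 -1.22, Top2a -1.24, Kif15 -2.02 and Spc24 -1.93 for Ter119+ against Kit+ cytoplasm; Cdk1 -0.11, Plk1 -0.66, Cdc20 -1.76 and Top2a -0.79 for the polysomes; Plk1 0.085, Cdc20 0.45, Top2a 0.38 and Cdc25b 1.42 for the cell types in the Rpl5 line and Cdk1 0.023 in the Rps19 line; Cdc20 -0.29 for polysome against cytoplasm of Kit+ controls; and Birc5 0.19 for polysome minus cytoplasm in Kit+ cells of the Rps19 line. The scale itself moved the median of all genes, as given with the results.

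The polysome counts moved with the libraries used, shallow or deep. Without the libraries under 2 M reads the counts were 6 and 13 in Kit+ polysomes of the Rpl5 and Rps19 lines, 11 in Ter119+ polysomes of the Rps19 line, 29 for polysome against cytoplasm of Ter119+ controls and 2 for polysome minus cytoplasm in Ter119+ cells of the Rps19 line. With voom they were 14 and 9 in Kit+ and Ter119+ polysomes of the Rps19 line, 18 for Ter119+ controls and 6 for polysome minus cytoplasm in Kit+ cells of the Rps19 line. The shares of all genes called in these fits are not given here, and the cause was not tested. With each library left out in turn the counts ranged from 2 to 18 in Kit+ polysomes of the Rps19 line, from 5 to 37 and from 0 to 4 in Ter119+ polysomes of the Rpl5 and Rps19 lines, from 3 to 7 for polysome against cytoplasm of Ter119+ controls, and, for polysome minus cytoplasm, from 0 to 16 in Kit+ cells of the Rps19 line and from 0 to 5 in Ter119+ cells of the Rpl5 line. In cytoplasm they were 20 to 26 and 35 to 39 in Kit+ cells and 43 to 45 and 25 to 40 in Ter119+ cells of the Rpl5 and Rps19 lines. No value comes from leaving out the single VavCre Rpl5flox/+ Kit+ polysome library.

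With the replicate block the count was 5 in Kit+ polysomes and 10 in Ter119+ polysomes of the Rps19 line, whose numbers did not pair the pools by the correlations; the other 12 counts with a block stayed within 1.5 times. In the paired Rpl5 line it changed no call of a named member beside Mki67 and Pttg1 in Ter119+ cytoplasm.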
